A study of Mus musculus with 9 samples.

Results

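The RNA of alpha TC6 cells in which the insulin receptor substrate IRS1 had been knocked down (alphaIRS1KD cells, 3 arrays) was compared with that of control cells (3 arrays). These 6 samples were chosen by the genotype in their labels, out of 9 in the series, and the other 3 come from an IRS2 knockdown line (alphaIRS2KD). Alpha TC6 is a mouse line of glucagon-producing cells derived from a pancreatic tumor. Control cells carried a nonsilencing short hairpin RNA, and alphaIRS1KD cells a hairpin against Irs1. In both groups the hairpin came in a lentivirus that stayed in the cells under puromycin, so virus and antibiotic were shared. Each knockdown was 1 stable line, so that what is particular to a line and what the hairpin did cannot be told apart. The sources do not say whether the 3 replicates were separate cultures, and p-values then measure only the spread between these samples. Total RNA was hybridized to Affymetrix Mouse Gene 2.0 ST arrays, and every signal and difference given here is on the log2 scale of the deposited values, where a difference of 1 is a 2-fold change.

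When insulin binds its receptor, the receptor phosphorylates insulin receptor substrates, which recruit PI3-kinase and so activate the kinase AKT. AKT holds FOXO transcription factors out of the nucleus, and parallel branches feed mTORC1 and the RAS to ERK cascade. In alpha cells insulin restrains glucagon, a peptide that is cut from its precursor and packed with granins into dense-core granules after passing through the endoplasmic reticulum (ER) and the Golgi.

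The targeted transcript was lower on every alphaIRS1KD array. Irs1 read 8.06, 8.09 and 8.07 on the control arrays and 7.16, 7.12 and 7.22 on the alphaIRS1KD arrays, with no overlap, a difference of -0.91 ± 0.06 (standard error from limma, adjusted p = 3.2e-05). A dimmer probe of Irs1 gave -0.29 and was not called. Of the markers of alpha cells, Gcg, which encodes proglucagon, read 13.25, 13.25 and 13.23 in control and 13.21 on each alphaIRS1KD array (difference -0.04 ± 0.04, adjusted p = 0.74). Both groups sat so near the upper end of the arrays' scale (13.53 to 13.61) that a change may be compressed. Ttr, the transthyretin gene, strongly expressed in alpha cells, read 12.80, 12.74 and 12.85 in control and 11.89, 11.86 and 11.72 in alphaIRS1KD cells. It was thus 1.97-fold lower (difference -0.98 ± 0.06, adjusted p = 2.8e-05), and the groups did not overlap. Of 5 markers of delta, PP and epsilon cells, the hormone genes Sst, Ppy and Ghrl were not called (0.05, 0.14 and -0.11), and the bright Rbp4, which encodes a retinol carrier, was lower (11.96, 12.01 and 11.97 in control against 11.46, 11.53 and 11.48, adjusted p = 0.00088). The beta cell genes Ins2, Iapp and Ucn3 had mean signals of 4.06, 4.78 and 4.91 in control and 4.28, 4.74 and 4.87 in alphaIRS1KD cells, below the median of each array (5.03 to 5.11). Of 9 beta cell markers 1 was called lower (Npy), and of 9 acinar and duct markers 1 (Sox9, from 7.31, 7.05 and 7.03 to 6.34, 6.32 and 6.32). None of 13 markers of fibroblasts and endothelium (with unadjusted p under 0.05 as the limit, 0 in limma and 1 lower in the methods' t-test) or 8 of blood cells (1 higher in limma and 0 in the t-test) was called by limma. Their summed level, as a mean over the list, ranged over the arrays from 4.75 to 4.82 in control and 4.76 to 4.79 in alphaIRS1KD cells for the first list, and from 4.53 to 4.6 and 4.57 to 4.66 for the other.

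Over 22180 genes, limma called 661 higher (2.98%) and 816 lower (3.68%) in alphaIRS1KD than in control cells, 6.66% in either direction, at an adjusted p under 0.05. Without alphaIRS1KD replicate 2 the counts were 435 and 517, and 517 and 519 were lower without control replicates 2 and 3. Each count of list members that follows is to be read against these shares, which depend on signal as given below. The median difference was 0.01 over all genes, 0.42 over those called higher and -0.42 over those called lower. A change of at least 2-fold was seen in 54 higher and 66 lower genes, and one of at least 4-fold in 5 and 7. Calls depended on how bright a probe was. Of 3 equal classes, 0.69% of genes were called in the dimmest, 6.75% in the middle one and 12.5% in the brightest. A missing call among dim genes thus carries little. In the brightest class 387 of 7393 genes were higher and 540 lower, so lists of bright genes are to be read against higher shares. Arrays of a group correlated at 0.9966 to 0.9973 over all genes, and control with alphaIRS1KD arrays at 0.9931 to 0.9942. In a bulk sample, fewer cells of a kind and less RNA per cell cannot be told apart.

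Among the 25 largest rises were a protease inhibitor, a glycan-trimming enzyme, a transcription factor and a vesicular transporter. Serpina1c, of the family that encodes the protease inhibitor alpha-1-antitrypsin, read 4.09, 4.18 and 3.66 in control and 6.57, 6.69 and 6.91 in alphaIRS1KD cells, 6.71-fold higher (2.75 ± 0.14, adjusted p = 1e-05). It went from below the array median to well above it. The near-identical copies Serpina1a, Serpina1d and Serpina1e differed by 0.11, 0.20 and 0.00 and were not called, and how probes divide their signal among such copies is uncertain. Man1a, a Golgi mannosidase that trims N-linked glycans, read 7.17, 7.10 and 7.09 against 9.17, 9.35 and 9.26 (2.14 ± 0.08, 4.41-fold, adjusted p = 2e-06). The groups lay far apart, while its relatives Man1a2 (-0.03) and Man1c1 (0.26) were not called. Foxp2, a forkhead transcription factor known for neural circuits of vocal learning, read 4.73, 4.79 and 4.80 against 6.57, 6.43 and 6.64 (1.78 ± 0.07, 3.43-fold, adjusted p = 2e-06). All 3 control arrays lay below the array median and all 3 alphaIRS1KD arrays above it.

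Slc32a1 encodes the transporter that loads GABA and glycine into vesicles. It read 5.52, 5.52 and 5.42 in control and 7.10, 7.16 and 7.14 in alphaIRS1KD cells (1.65 ± 0.06, 3.14-fold, adjusted p = 1.7e-06), and a dimmer probe of the gene gave 0.49. The enzymes that make GABA, Gad1 (-0.04) and Gad2 (0.12), and the one that degrades it, Abat (0.15), were not called. Neto2, an auxiliary subunit of kainate receptors, read 7.63, 7.47 and 7.69 against 9.16, 9.21 and 9.21 (1.59 ± 0.09, adjusted p = 2e-05). The kainate receptor subunit Grik3 moved the same way, from 4.74, 4.97 and 5.39 to 6.19, 6.21 and 6.12 (1.14), with no overlap. Bmp7, a bone morphogenetic protein, read 6.11, 6.31 and 6.09 against 7.60, 7.82 and 7.56 (1.5 ± 0.08, adjusted p = 2e-05). Gucy2c, the gut receptor for guanylin, read 5.06, 4.78 and 4.96 against 6.39, 6.5 and 6.41 (1.5 ± 0.08, adjusted p = 1.9e-05). Both genes separated the groups fully. The cell adhesion molecule Alcam read 8.63, 8.63 and 8.53 against 10.03, 9.95 and 9.99 (1.40 ± 0.05, 2.63-fold, adjusted p = 1.7e-06). Trp53i11 (1.88), the copine Cpne2 (1.47), the annexin Anxa4 (1.41), the WNT inhibitor Apcdd1 (1.38) and the transcription factor Twist2 (1.37) were also among the 25 largest rises.

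**Figure D1:**
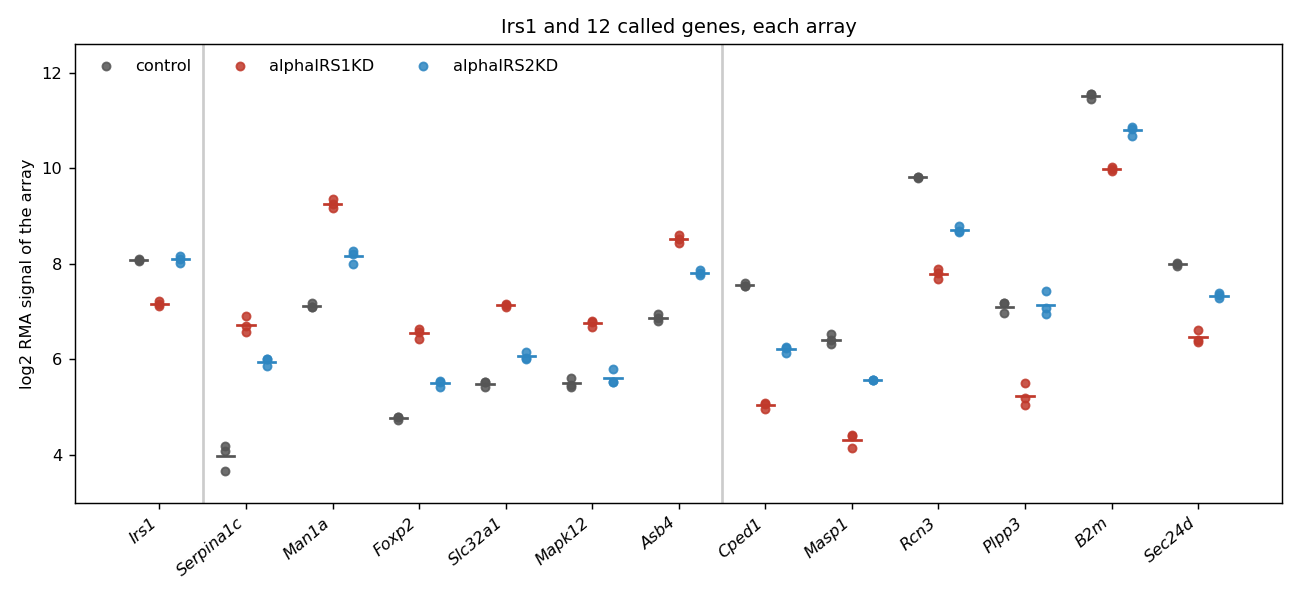
Log2 signal (vertical axis) of Irs1 and of 12 genes with large changes on each of the 9 arrays, grouped as control, alphaIRS1KD and alphaIRS2KD, with a bar at each group's mean. For every gene shown the 3 alphaIRS1KD arrays lie apart from the 3 control arrays, and for Man1a, Cped1 and B2m the alphaIRS2KD arrays lie between them.

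The largest falls included secreted and secretory-route proteins. Cped1, a protein with a cadherin-like domain, read 7.59, 7.54 and 7.54 in control and 4.95, 5.07 and 5.08 in alphaIRS1KD cells (-2.53 ± 0.06, 5.76-fold lower, adjusted p = 8.7e-08), although a dimmer probe of the gene gave -0.21. Masp1, a protease of the lectin pathway of complement, read 6.52, 6.40 and 6.32 against 4.41, 4.39 and 4.14 (-2.10 ± 0.08, 4.29-fold lower, adjusted p = 2e-06), which took it from above the array median to below it. Rcn3, a calcium-binding protein of the ER lumen, read 9.82, 9.81 and 9.79 against 7.81, 7.68 and 7.89 (-2.01 ± 0.06, 4.04-fold lower, adjusted p = 1.2e-06). Sec24d, which picks cargo for the vesicles that leave the ER, read 8.00, 7.96 and 8.01 against 6.36, 6.41 and 6.62 (-1.53 ± 0.07, 2.89-fold lower, adjusted p = 7.2e-06). In each of these genes the groups were far apart and the control arrays nearly equal.

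B2m, the light chain of every MHC class I molecule, read 11.55, 11.45 and 11.56 in control and 9.94, 10.02 and 9.98 in alphaIRS1KD cells (-1.54 ± 0.06, 2.91-fold lower, adjusted p = 2.4e-06). Plpp3, a phosphatase of lipid messengers, read 7.17, 6.96 and 7.18 against 5.50, 5.04 and 5.18 (-1.86 ± 0.15, 3.64-fold lower, adjusted p = 0.00013). Ccn2, the matricellular protein also called CTGF, read 7.20, 6.85 and 7.17 against 5.11, 5.27 and 5.39 (-1.82 ± 0.14, adjusted p = 9.7e-05), although a dimmer probe of the gene gave -0.43. No alphaIRS1KD array reached the lowest control array in any of the 3. Carbonic anhydrase Car2 read 9.86, 9.88 and 9.75 against 8.32, 8.33 and 8.40 (-1.48, 2.79-fold lower, adjusted p = 7.1e-06). The paired box factor Pax3 read 8.84, 8.96 and 8.88 against 7.58, 7.48 and 7.49 (-1.38 ± 0.05, 2.6-fold lower, adjusted p = 2e-06). Gas6, the ligand of the AXL, MER and TYRO3 receptors, read 6.20, 6.13 and 6.18 against 5.04, 5.03 and 5.00 (-1.15 ± 0.06, adjusted p = 1.7e-05), and its alphaIRS1KD arrays lay below the array median. The receptor ligand Alkal2 (-1.54), the ubiquitin ligase Lonrf2 (-1.51), the antioxidant enzyme Gpx3 (-1.49) and the deubiquitinase Otud7a (-1.38) fell as well.

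Components of insulin signaling other than Irs1 were taken as a list of 29 measured genes of the insulin receptor, PI3-kinase and AKT pathway. Of these, 3 were higher (10.3%, against 2.98% of all genes) and 0 were lower. The docking protein Gab2, another scaffold that recruits PI3-kinase, read 8.13, 8.19 and 8.10 in control and 8.76, 8.69 and 8.74 in alphaIRS1KD cells (0.59 ± 0.05, adjusted p = 0.00019). Inppl1, the lipid phosphatase SHIP2 that removes the product of PI3-kinase, read 6.85, 6.81 and 6.84 against 7.25, 7.32 and 7.28 (0.45 ± 0.05, adjusted p = 0.00093). In both, the groups were separate. The regulatory subunit Pik3r1 differed by 0.21 (adjusted p = 0.033), a call that was lost without 7 of the 9 arrays (adjusted p = 0.12 without control replicate 3). The receptors Insr (0.06) and Igf1r (-0.04), the kinase Akt1 (0.19, adjusted p = 0.091), Foxo1 (0.06) and Irs2 (-0.15, adjusted p = 0.23) were not called.

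Genes that FOXO factors can activate went both ways, 3 of 23 higher and 4 lower. Klf15, a regulator of gluconeogenesis and amino acid breakdown, read 6.61, 6.43 and 6.36 against 7.26, 7.19 and 7.07 (0.71 ± 0.08, adjusted p = 0.0008). Cyclin G2, Ccng2 (0.44), and pyruvate dehydrogenase kinase Pdk4 (0.32) were the other rises, and Cited2 (-0.45) and the sestrin Sesn3 (-0.32) were lower. The 2 other falls rest on some arrays. Ddit4, an inhibitor of mTORC1, differed by -0.56 (adjusted p = 0.1 without control replicate 2) and the pseudokinase Trib1 by -0.46 (adjusted p = 0.074 without control replicate 1). Around mTORC1, 1 of 35 genes was higher and 2 lower. Prkaa2, the alpha2 catalytic subunit of the energy sensor AMPK, read 8.15, 8.11 and 8.27 against 7.71, 7.58 and 7.65 (-0.53 ± 0.09, adjusted p = 0.01), with every alphaIRS1KD array below every control array. The rise of Rragb (0.35) and the fall of Deptor (-0.31) were each lost without 6 of the 9 arrays (highest adjusted p = 0.087 and 0.1).

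Stress-activated MAP kinases went in opposite directions. The p38 kinases Mapk12 and Mapk11 rose and the JNK family member Mapk10 fell, while ERK transcripts were not called. Mapk12 read 5.46, 5.60 and 5.43 in control and 6.80, 6.78 and 6.68 in alphaIRS1KD cells (1.25 ± 0.08, 2.39-fold, adjusted p = 4.7e-05). Mapk11 read 5.77, 5.66 and 5.72 against 7.04, 6.77 and 6.92 (1.19 ± 0.09, 2.28-fold, adjusted p = 7.4e-05). These genes are neighbors on chromosome 15, and the 3 measured genes on one side of them (Trabd -0.12, Tubgcp6 -0.06, Hdac10 0.15) and on the other (Plxnb2 0.18, Dennd6b -0.19, Ppp6r2 0.06) were not called. Mapk14 (0.09), the broadly expressed p38 kinase, and Mapk13 (-0.14) were not called either. Mapk10 read 8.57, 8.64 and 8.68 against 7.80, 7.84 and 7.77 (-0.83 ± 0.06, adjusted p = 5.1e-05).

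Of 34 genes that ERK signaling induces or that feed back on it, 4 were lower and 1 higher. Dusp6, a phosphatase that switches ERK off and is itself induced by ERK, read 9.78, 9.64 and 9.42 in control and 8.56, 8.51 and 8.19 in alphaIRS1KD cells (-1.19 ± 0.13, 2.28-fold lower, adjusted p = 0.00087), although a much dimmer probe of the gene gave -0.03. Egr1, an immediate early transcription factor, read 6.46, 6.53 and 6.42 against 5.50, 5.59 and 5.41 (-0.97 ± 0.07, 1.96-fold lower, adjusted p = 0.0001). Atf3, which responds to stress and growth signals, read 7.31, 7.23 and 7.20 against 6.72, 6.66 and 6.48 (-0.62, adjusted p = 0.001). The groups did not overlap in any of these. The fall of Dusp1 (-0.35) and the rise of Nr4a2 (0.37) were each lost without 7 of the 9 arrays (highest adjusted p = 0.16 and 0.14), and the feedback inhibitor Spry4 differed by -0.06. Of 50 receptor tyrosine kinases and ligands 6 were higher and 2 lower, the higher ones including the orphan receptor Ror1 (0.73), the growth factor Fgf1 (0.71) and the receptor Fgfr2 (0.62). Of 36 protein tyrosine phosphatases, enzymes that oppose such kinases, 6 were higher and 3 lower. Ptprf, the receptor phosphatase LAR, which dephosphorylates the insulin receptor in other tissues, read 6.62, 6.52 and 6.77 against 7.60, 7.62 and 7.60 (0.97 ± 0.10, adjusted p = 0.00049). Ptpru (0.92), Ptprk (0.83) and Ptprj (0.67) rose with it, and Ptpn13 (-0.65) and the granule membrane proteins Ptprn (-0.35) and Ptprn2 (-0.30) fell.

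**Figure D2:**
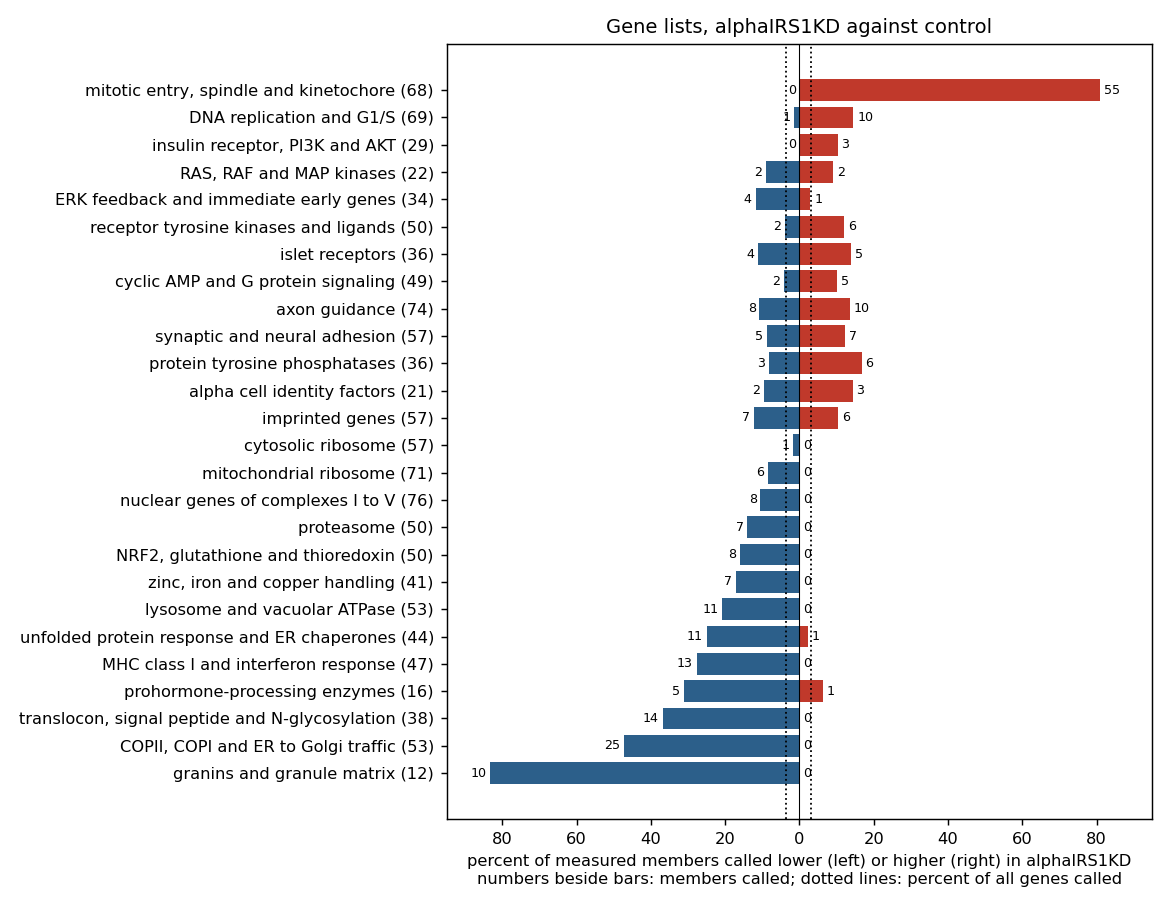
Percent of the measured members of 26 gene lists that were called higher (to the right) or lower (to the left) in alphaIRS1KD than in control cells. Dotted lines mark the shares over all genes, 2.98% higher and 3.68% lower. The longest bars are the mitotic list (80.9% higher) and the list of granins and granule matrix (83.3% lower).

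Genes of the secretory route were lower at several of its stations. Granins condense hormones into dense cores. Of 12 genes listed as granins and granule matrix, 10 were lower and 0 were higher, with a median difference of -0.41, and the count was 10 without any single array. The list is broader than granins, since it holds the zinc transporter Slc30a8 and the granule membrane proteins Ptprn and Ptprn2. Ptprn and Ptprn2 are counted with the protein tyrosine phosphatases too. Chgb, the granin chromogranin B, read 11.36 on each control array and 10.65, 10.52 and 10.58 on the alphaIRS1KD arrays (-0.78 ± 0.05, adjusted p = 3.6e-05). Resp18 read 11.33, 11.39 and 11.35 against 10.61, 10.57 and 10.64 (-0.75 ± 0.05, adjusted p = 3.2e-05). Nucb2, the precursor of nesfatin, read 8.52, 8.56 and 8.50 against 7.87, 7.87 and 7.79 (-0.69). All 3 were lower on every alphaIRS1KD array. The mean over the list was 10.52, 10.54 and 10.57 on the control arrays and 10.10, 10.10 and 10.11 on the alphaIRS1KD arrays. Of 16 genes listed as enzymes that cut and modify prohormones, 5 were lower and 1 was higher, and 3 and 0 without any 1 of the control or alphaIRS1KD arrays. The 5 include Tapbp, at -0.64 the lowest of the list. Tapbp loads peptides onto MHC class I molecules and is counted with those genes too. Pam, which amidates peptides, read 11.75, 11.71 and 11.71 against 11.27, 11.26 and 11.26 (-0.46 ± 0.04, adjusted p = 0.0004). The lysosomal protease Ctsl, which can also cut prohormones, read 10.45, 10.57 and 10.57 against 10.06, 10.05 and 10.02 (-0.49, adjusted p = 0.00098). In both the groups were separate. The study named hormone secretion and peptide metabolism as themes of these same arrays, so granins and Pam are no independent evidence of their direction.

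Genes of the vesicle coats between ER and Golgi were lower in large number. Of 53 genes of COPII and COPI vesicles and their tethers 25 were lower and 0 were higher, with a median of -0.22 and a range from -1.53 to 0.21. The count was 16 to 19 when a control or alphaIRS1KD array was left out, lowest without alphaIRS1KD replicate 2. Besides Sec24d, the COPI coat subunit Copb2 read 10.17, 10.21 and 10.14 in control and 9.57, 9.51 and 9.58 in alphaIRS1KD cells (-0.62 ± 0.05, adjusted p = 0.00021). The cargo receptor Tmed3 read 8.66, 8.62 and 8.47 against 8.06, 8.02 and 8.00 (-0.55). Creb3, an ER-anchored transcription factor that promotes expression of secretory-route genes, read 8.92, 9.00 and 8.88 against 8.42, 8.38 and 8.35 (-0.55). Each of these genes kept the groups apart. The cargo receptor Surf4 (-0.48) and the COPII subunit Sec23a (-0.46) were also lower, whereas its paralog Sec23b differed by 0.06 (adjusted p = 0.71).

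Upstream of the coats, 14 of 38 genes for translocation into the ER and N-glycosylation were lower and 0 were higher (median -0.20). This count rests on the full set of arrays, since it was 4 or 5 without any 1 of the control or alphaIRS1KD arrays and 6 after centring each array on its median. The translocation protein Sec62 read 8.96, 9.01 and 9.03 against 8.41, 8.59 and 8.43 (-0.53 ± 0.07, adjusted p = 0.0023), without overlap. The N-glycan glucosidase Mogs (-0.41) and the translocon-associated subunit Ssr4 (-0.41) were lower with it.

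**Figure D3:**
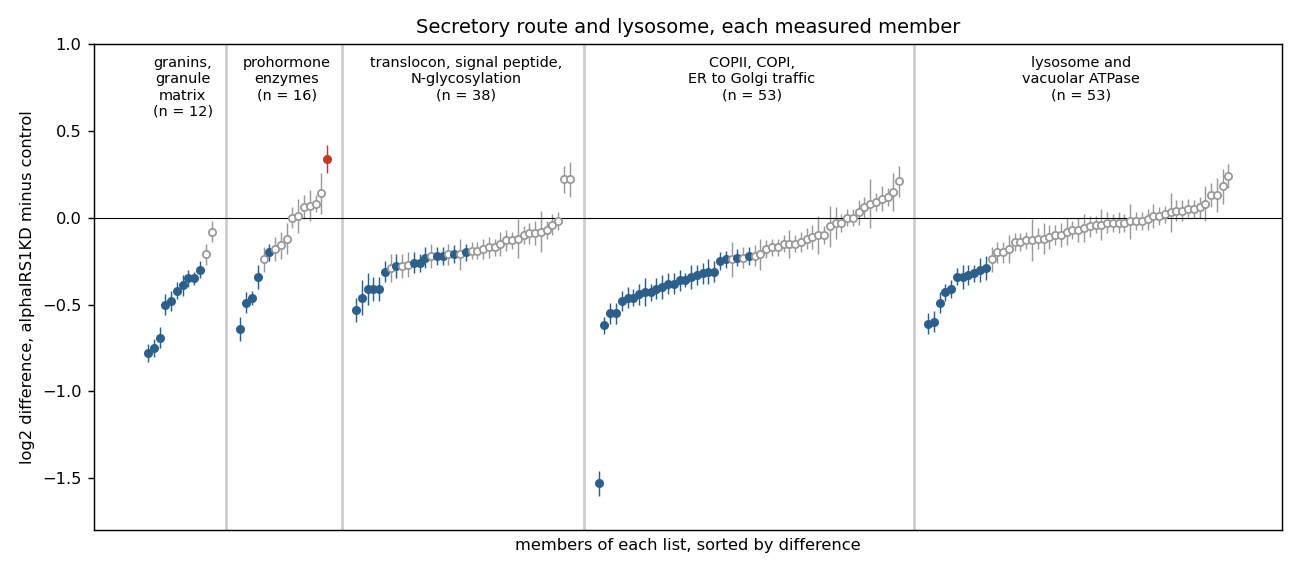
Log2 difference between alphaIRS1KD and control cells (vertical axis, with the standard error from limma) for each measured member of 5 lists along the secretory route, from granins to lysosome. Filled points passed the test (lower in blue, higher in red), and open points did not. Apart from 1 prohormone enzyme, every filled point lies below 0, with 10 of 12 granin and granule genes and 25 of 53 vesicle-coat genes lower.

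The unfolded protein response, which senses misfolded proteins in the ER and induces chaperones, gave 11 lower and 1 higher of 44 genes (median -0.13), with 5 to 7 lower when a control or alphaIRS1KD array was left out (5 without control replicate 2 or 3 or alphaIRS1KD replicate 2). The sensor kinases went opposite ways. Ern1, the IRE1 sensor, read 9.04, 9.00 and 9.02 in control and 9.49, 9.48 and 9.38 in alphaIRS1KD cells (0.43 ± 0.05, adjusted p = 0.0018), and Eif2ak3, the PERK sensor, read 8.74, 8.87 and 8.80 against 8.21, 8.23 and 8.30 (-0.56 ± 0.05, adjusted p = 0.00036). Neither overlapped between groups, and the sensor Atf6 (0.12) was not called. The peptidyl-prolyl isomerase Ppib (-0.45) and the chaperone Hyou1 (-0.33) were lower, and the chief chaperone Hspa5 (-0.21, adjusted p = 0.056) was not called. Xbp1 differed by -0.26 (adjusted p = 0.033), and this call was lost without 5 of the 9 arrays (adjusted p = 0.12 without alphaIRS1KD replicate 2).

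The promoters of this list were searched because they carry a known element for ER stress (CCAAT, any 9 bases, then CCACG), on either strand. It stood in the 250 bases before the start of 10 of 39 members with a promoter sequence (25.6%), against 0.154% of all 16918 genes that had one. Of these 10 genes 4 were lower, with a median of -0.18, and of the 29 without the element 5 were lower and 1 was higher, with a median of -0.11. The elements of the 4 lower genes and of Hspa5, which was not called, are shown with 6 bases on each side, from RefSeq in GRCm38.p6, and capitals mark the fixed letters (CGTGG and ATTGG where the element lies on the other strand). Syvn1 is a ubiquitin ligase of ER-associated degradation, Calr the lectin chaperone calreticulin, Creld2 a secreted ER stress protein and Pdia6 a disulfide isomerase.
Syvn1 (chr19:6046526-6046556, plus strand, difference -0.50): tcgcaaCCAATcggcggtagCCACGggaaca
Calr (chr8:84847069-84847099, minus strand, difference -0.27): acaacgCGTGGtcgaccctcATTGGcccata
Creld2 (chr15:88819514-88819544, plus strand, difference -0.25): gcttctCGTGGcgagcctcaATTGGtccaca
Pdia6 (chr12:17266485-17266515, plus strand, difference -0.24): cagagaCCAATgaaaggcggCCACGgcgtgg
Hspa5 (chr2:34772019-34772049, plus strand, difference -0.21): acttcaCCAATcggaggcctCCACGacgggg
A match describes these letters only and shows no binding.

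Lysosomal genes and those of antigen presentation and metal handling were lower where they were called. Of 53 lysosomal and vacuolar ATPase genes 11 were lower and 0 higher, and 7 or 8 were lower without 1 of the control or alphaIRS1KD arrays (7 without control replicate 3 or alphaIRS1KD replicate 1 or 2). Hexa, a subunit of the hexosaminidase that breaks down gangliosides, read 9.79, 9.84 and 9.87 in control and 9.20, 9.15 and 9.37 in alphaIRS1KD cells (-0.60). Gm2a, the activator protein of the same step, read 9.21, 9.31 and 9.31 against 8.76, 8.61 and 8.63 (-0.61). Both separated the groups, and the protease Ctsd (-0.41) and the cholesterol carrier Npc2 (-0.43) were lower too. Of 47 genes of MHC class I and the interferon response 13 were lower and 0 higher, and 8 were lower without alphaIRS1KD replicate 3. Besides B2m, the antiviral tether Bst2 read 7.04, 7.09 and 7.12 against 6.34, 6.22 and 6.20 (-0.83, adjusted p = 0.00023). Tapbp, tapasin, which loads peptides onto class I molecules, read 9.09, 9.14 and 9.18 against 8.47, 8.41 and 8.61 (-0.64, adjusted p = 0.0006), although a dimmer probe of the gene gave -0.19. H2-K1 (-0.64), a class I heavy chain whose gene belongs to a family of close copies, and the immunoproteasome subunit Psmb10 (-0.62) fell as well. Psmb10, Psmb9 (-0.40) and Psmb8 (-0.38, adjusted p = 0.099 without alphaIRS1KD replicate 2) were 3 of the 7 lower among 50 proteasome genes, and 3 or 4 were lower without 1 of the control or alphaIRS1KD arrays, 3 without control replicate 3 or alphaIRS1KD replicate 3. Of 41 genes for zinc, iron and copper 7 were lower and 0 higher. The zinc importer Slc39a10 read 8.26, 8.30 and 8.32 against 7.32, 7.42 and 7.41 (-0.91, adjusted p = 3.5e-05), the metallothionein Mt3 differed by -0.81 and the granule and vesicle zinc transporter Slc30a4 by -0.56.

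Genes of cell division were higher by small and even amounts. All 68 measured genes of mitotic entry, spindle and kinetochore had a higher mean in alphaIRS1KD than in control cells, and 55 of them (80.9%) passed the test, with 0 lower. The differences ranged from 0.04 to 0.59 with a median of 0.38. The mean over the list was 9.14, 9.12 and 9.10 on the control arrays and 9.50, 9.49 and 9.48 on the alphaIRS1KD arrays, so that the arrays of a group hardly differed. Leaving out a control or alphaIRS1KD array left 43 to 48 higher. Cyclin B2, Ccnb2, which drives entry into mitosis with Cdk1, read 8.82, 8.68 and 8.67 against 9.42, 9.27 and 9.19 (0.57 ± 0.08, adjusted p = 0.0028). The phosphatase Cdc25c, which activates Cdk1, read 8.04, 8.11 and 8.16 against 8.70, 8.68 and 8.71 (0.59, adjusted p = 0.00075). Neither gene overlapped between the groups. The kinesin Kif20a, needed for cytokinesis, read 10.21, 10.29 and 10.22 against 10.71, 10.82 and 10.75 (0.52 ± 0.05, adjusted p = 0.00049). Cdc20, which turns on the anaphase-promoting complex, read 10.14, 10.12 and 10.09 against 10.64, 10.59 and 10.59 (0.49). The kinases Aurka (0.46), Plk1 (0.39) and Cdk1 (0.34), the proliferation marker Mki67 (0.37) and Foxm1 (0.27), a transcription factor of mitotic genes, were higher as well. The study counted alphaIRS1KD cells and measured their BrdU uptake, and it reported no significant change in proliferation. Whether these transcripts go with faster division was not tested.

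DNA replication moved less. Of 69 genes of replication and the step from G1 to S phase 10 were higher and 1 lower (median 0.11), and the higher count was between 1 and 5 without 1 of the control or alphaIRS1KD arrays (1 without control replicate 1 or 3 or alphaIRS1KD replicate 3) and 5 after centring on array medians. Dut, which keeps uracil out of DNA, read 9.24, 9.18 and 9.13 against 9.69, 9.69 and 9.60 (0.48, adjusted p = 0.0015), and a dimmer probe of the gene gave 0.21. The member that fell was cyclin D2, Ccnd2, from 5.65, 5.44 and 5.40 to 4.68, 4.98 and 4.87 (-0.66, adjusted p = 0.011). Both genes kept the groups apart. Of 41 p53 targets and apoptosis genes 2 were higher and 3 lower. Btg2, an antiproliferative factor that p53 induces, read 8.88, 8.85 and 8.98 against 7.67, 7.56 and 7.50 (-1.32 ± 0.06, 2.5-fold lower, adjusted p = 6e-06). Trp53inp1 (-0.78) and cyclin G1, Ccng1 (-0.64), also p53 targets, were lower, and the caspase Casp6 (0.67) was higher.

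**Figure D4:**
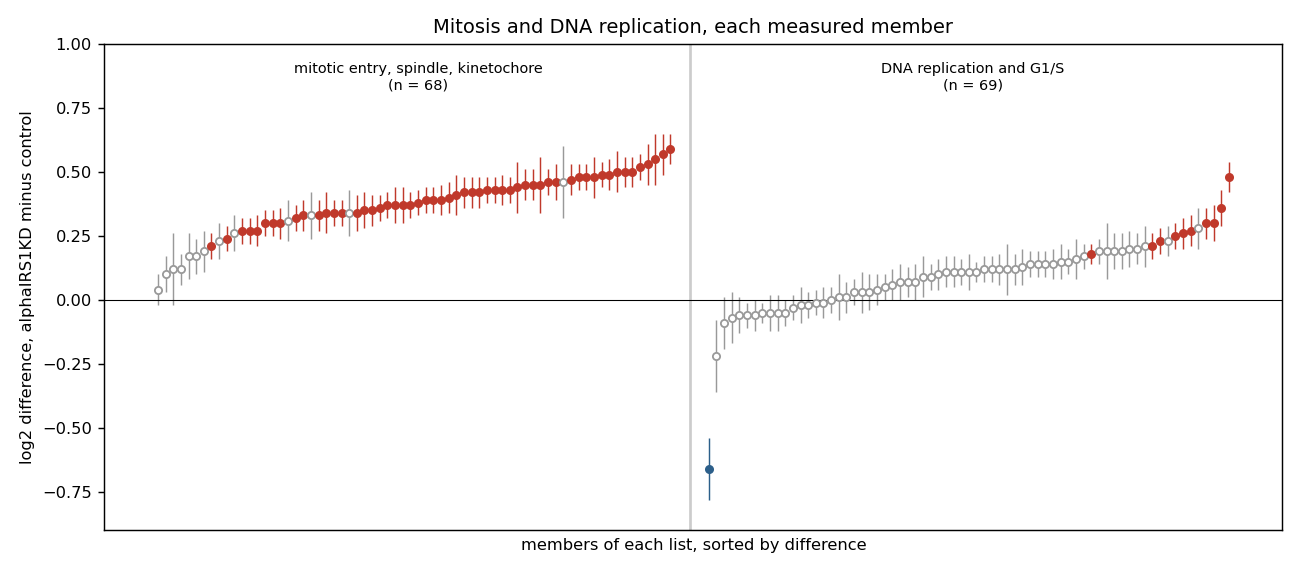
Log2 difference between alphaIRS1KD and control cells (with the standard error from limma) for each of 68 mitotic genes and 69 genes of DNA replication and G1/S. Filled points passed the test. The mitotic genes all lie above 0 and within 0.59 of it, and the replication genes lie on both sides with 10 higher and 1 lower.

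Mitotic genes are known to share promoter elements, the cell cycle homology region (CHR, TTTGAA) and the CCAAT box, through which they are kept off outside G2 and M phase or switched on. In the 250 bases before the start, searched on both strands, a CHR stood in 18 of 54 mitotic promoters (33.3%) against 14.2% of all 16918, and a CCAAT box in 39 (72.2%) against 35.6%. Both stood together in 15 (27.8%) against 5.14% of all promoters. Among 57 replication genes 7 had a CHR (12.3%) and 5 both elements (8.77%). Of the 18 mitotic genes with a CHR 16 were called higher (median difference 0.36), and of the 36 without one 29 were (median 0.39). The 36 of 39 mitotic genes with a CCAAT box that were called higher stand beside 9 of 15 without one. A stretch that holds both elements is shown for 5 genes, from RefSeq in GRCm38.p6, written along the gene. The 250 bases may hold further elements outside it. Capitals mark TTTGAA and CCAAT, or TTCAAA and ATTGG where the element lies on the other strand. They were picked for well-known roles in mitosis, after their values were seen, and other mitotic genes that hold both are not shown. Ube2c is the ubiquitin-conjugating enzyme of the anaphase-promoting complex.
Ccnb2 (chr9:70421631-70421727, minus strand): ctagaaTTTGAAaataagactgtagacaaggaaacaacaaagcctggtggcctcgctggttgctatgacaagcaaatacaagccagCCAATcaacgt
Cdc20 (chr4:118437344-118437402, minus strand): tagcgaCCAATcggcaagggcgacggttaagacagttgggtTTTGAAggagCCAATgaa
Cdk1 (chr10:69352950-69352998, minus strand): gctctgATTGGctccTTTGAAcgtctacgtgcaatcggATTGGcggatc
Ube2c (chr2:164769835-164769911, plus strand): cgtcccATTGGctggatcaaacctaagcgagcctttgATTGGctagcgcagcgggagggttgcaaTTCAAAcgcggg
Mki67 (chr7:135716484-135716573, minus strand): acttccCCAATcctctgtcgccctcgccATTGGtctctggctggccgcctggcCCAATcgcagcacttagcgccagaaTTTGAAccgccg
Here too a match shows letters and not binding.

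Of 76 nuclear genes of respiratory complexes I to V 8 were lower (10.5%) and 0 higher, and 63 had a difference below 0 (median -0.09). The mean over the list was 9.05, 9.04 and 9.06 on the control arrays and 8.93, 8.90 and 8.98 on the alphaIRS1KD arrays, so that each of the latter was lower by a small amount. The count of lower genes lay between 3 (without control replicate 3 or alphaIRS1KD replicate 2) and 10 when an array was left out. Ndufa1, a small subunit of complex I, read 10, 9.96 and 10.01 in control and 9.37, 9.40 and 9.54 in alphaIRS1KD cells (-0.55, adjusted p = 0.00059), and Atp5l, a subunit of ATP synthase, read 10.05, 10.01 and 9.94 against 9.49, 9.49 and 9.45 (-0.52, adjusted p = 0.00031). Both fell on all arrays, whereas Atp5a1 (-0.01), Uqcrc2 (-0.01) and Sdhb (-0.05), core subunits of complexes V, III and II, were not called, and the sign of the first 2 changes with the scaling. The 10 transcripts that mitochondrial DNA encodes gave 0 calls in limma (also 0 at an unadjusted p under 0.05 and 0 in the methods' t-test) and a median of -0.01. Of 57 cytosolic ribosomal genes 0 were higher and 1 lower, Rpl5 (-0.73), a dim probe whose call was lost without 5 of the 9 arrays (adjusted p = 0.1 without control replicate 3). Of 71 mitoribosomal genes 6 were lower (8.45%) and 0 higher, but 1 lower without control replicate 3, and 55 had a difference below 0 (median -0.06). The mean signals of the respiratory and mitoribosomal lists lie in the brightest class of genes, where 12.5% were called in either direction. Of 56 translation factors 2 were lower and 0 higher.

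Of 21 measured transcription factors of alpha cell identity, 3 were higher and 2 lower. Irx1 read 9.28, 9.24 and 9.09 in control and 9.67, 9.71 and 9.75 in alphaIRS1KD cells (0.51, adjusted p = 0.0012), and its relative Irx2, an alpha cell marker, read 9.84, 9.77 and 9.71 against 10.13, 10.20 and 10.18 (0.39, adjusted p = 0.002). Pax6, which activates the glucagon gene, read 8.88, 8.87 and 8.95 against 9.28, 9.22 and 9.15 (0.32, adjusted p = 0.0097). None of the 3 overlapped between groups. Tcf7l2, a WNT effector and diabetes risk gene, was lower (-0.53), as was Meis2 (-0.33, adjusted p = 0.066 without control replicate 2). Of the forkhead factors 3 of 36 were higher, led by Foxp2, and none of 36 Hox genes was called by limma (at an unadjusted p under 0.05, 1 rose and 1 fell in limma and 0 in the methods' t-test).

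Of 25 genes listed as neuropeptides 4 were lower and 1 higher, the synaptic organizer Cbln1 (0.24, adjusted p = 0.086 without control replicate 3). The largest fall was that of Nrn1 (-2.17), which encodes neuritin, so the list is broader than neuropeptide precursors. Penk, the enkephalin precursor, read 5.97, 5.95 and 5.95 against 4.82, 4.63 and 4.78 (-1.21 ± 0.15, 2.32-fold lower, adjusted p = 0.0014), so that its alphaIRS1KD arrays lay below the array median. Npy (-0.80) and Cartpt (-0.64) were lower with it. Receptors of islet cells went both ways, 5 of 36 higher and 4 lower, with 2 or 3 higher without 1 of the control or alphaIRS1KD arrays (2 without control replicate 3 or alphaIRS1KD replicate 1 or 2). The vasopressin receptor Avpr1b, through which vasopressin raises glucagon release, read 8.36, 8.28 and 8.10 against 6.95, 6.86 and 6.91 (-1.34, adjusted p = 3.6e-05). The cholecystokinin and gastrin receptor Cckbr read 7.25, 7.04 and 7.15 against 6.14, 6.04 and 6.04 (-1.07, adjusted p = 0.0011). Both were lower on every alphaIRS1KD array. Downstream of such receptors, 5 of 49 genes of cyclic AMP and G protein signaling were higher and 2 lower, with a median of 0.06. The phosphodiesterase Pde7b, which degrades cyclic AMP, read 6.97, 7.16 and 7.15 against 8.02, 8.16 and 8.18 (1.03, adjusted p = 0.00048). The inhibitory G protein subunit Gnai1 read 8.77, 8.81 and 8.83 against 9.64, 9.58 and 9.52 (0.78, adjusted p = 0.00015), and the protein kinase A subunit Prkar2a differed by 0.51. Each of these rose on all 3 arrays. Of the potassium channels Kcnk1, a 2-pore leak channel, read 9.40, 9.40 and 9.51 against 8.47, 8.40 and 8.44 (-1.0), and Abcc9, the sulfonylurea receptor SUR2, was lower (-0.93).

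Genes of cell contact and guidance were called in both directions, 10 higher and 8 lower of 74 axon guidance genes (5 lower without alphaIRS1KD replicate 2, 4 without any 1 of the other control or alphaIRS1KD arrays, and 5 after centring on array medians). Netrin-1, Ntn1, read 6.04, 6.30 and 6.35 in control and 7.44, 7.49 and 7.33 in alphaIRS1KD cells (1.19), and the ephrin Efna5 read 6.13, 6.13 and 6.03 against 7.28, 7.39 and 7.19 (1.19). The netrin receptor Unc5a (0.75) rose with its ligand and another, Unc5c (-0.79), fell. Ntn1 and Efna5 did not overlap between groups, and the slit receptor Robo2 (0.81) and the adhesion molecule Ncam1 (0.78) were also higher. In metabolism, 4 of 36 genes of fatty acid synthesis and lipid droplets were higher and 1 lower, with a median of 0.03. Mlxipl, which encodes the glucose-sensing factor ChREBP, read 6.12, 6.26 and 6.18 against 7.24, 7.20 and 7.16 (1.01, 2.01-fold, adjusted p = 1.4e-05). Srebf1, the other chief regulator of fatty acid synthesis, read 6.82, 6.75 and 6.82 against 7.17, 7.24 and 7.24 (0.42, adjusted p = 0.0014), and the desaturase gene Fads3 differed by 0.70. All 3 separated the groups. Of 55 amino acid and sugar transporters 7 were lower and 2 higher, with 4 to 6 lower without 1 of the control or alphaIRS1KD arrays. The transporter Slc7a8 read 7.85, 7.81 and 7.99 against 6.66, 6.76 and 6.69 (-1.18), the glutamine transporter Slc38a5 read 11.61, 11.65 and 11.57 against 10.76, 10.86 and 10.78 (-0.81), and the glucose transporter Slc2a3 differed by -0.73.

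On chromosome 6 a run of genes around the imprinted Peg10 was examined because 2 of the larger rises lie in it. Of 18 measured genes from Vps50 to Pdk4, 7 were called, 6 higher and 1 lower. Calcr, the calcitonin receptor, read 9.31, 9.32 and 9.28 in control and 10.27, 10.35 and 10.28 in alphaIRS1KD cells (0.99, adjusted p = 3.5e-05). Asb4, a substrate-binding subunit of a ubiquitin ligase, read 6.95, 6.86 and 6.80 against 8.61, 8.51 and 8.44 (1.65 ± 0.06, 3.13-fold, adjusted p = 2e-06). Both were far apart between the groups. Gng11 (0.96), Ppp1r9a (0.39), Pdk4 (0.32) and Peg10 itself (0.35, adjusted p = 0.13 without control replicate 2) were higher, and Pon3 (-0.57) was lower. Genes between them were not called, among them Bet1 (0.15), Col1a2 (-0.09), Casd1 (0.20) and Sgce (0.33, adjusted p = 0.051). Elsewhere, the imprinted Mest, which is expressed from the paternal copy, read 9.97, 9.90 and 9.85 against 9.20, 9.35 and 9.15 (-0.67). Imprinted genes as a list gave 6 higher and 7 lower of 57.

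**Figure D5:**
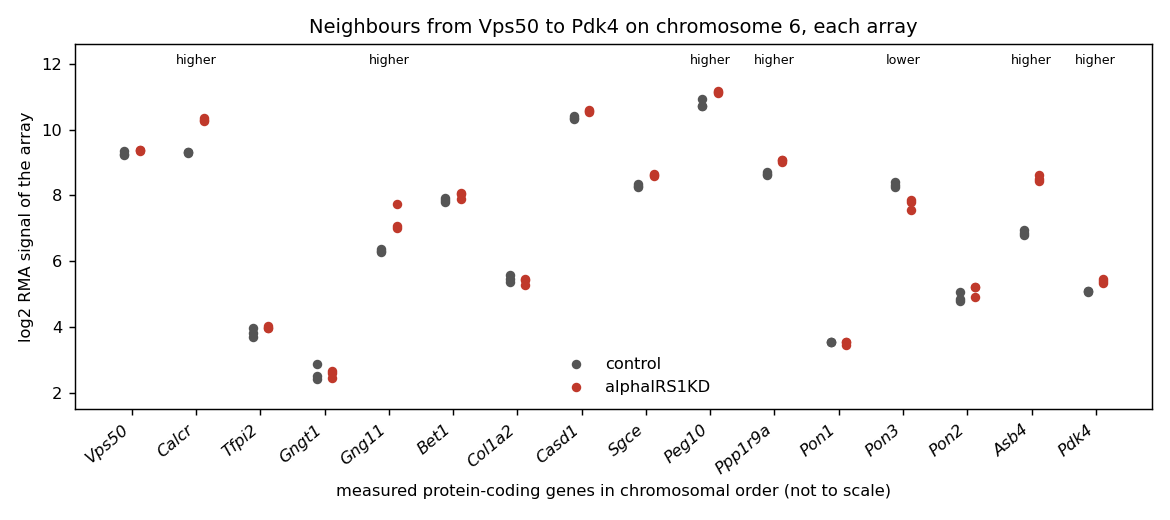
Log2 signal of 16 protein-coding genes in their order along chromosome 6 from Vps50 to Pdk4, with the 3 control and 3 alphaIRS1KD arrays as points. Calcr and Asb4 differ by 0.99 and 1.65 while genes between them, such as Bet1 (0.15) and Col1a2 (-0.09), were not called.

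Y-linked genes were not level between the lines. Of 7 measured, Eif2s3y, a translation initiation subunit, read 4.54, 4.42 and 4.59 in control and 5.60, 5.84 and 6.18 in alphaIRS1KD cells (1.36, adjusted p = 0.0015). Uty read 3.62, 3.43 and 3.53 against 4.31, 4.56 and 4.46 (0.92, adjusted p = 0.00027), both without overlap, and Kdm5d (0.39) was not called. Both genes lay below the array median in control cells, and on the alphaIRS1KD arrays Uty stayed below it and Eif2s3y lay above it. The part of such a difference between lines in the other results was not tested.

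Whether a change differed from that in the IRS2 knockdown was tested in the same limma fit as alphaIRS1KD against alphaIRS2KD, which called 1.71% of all genes higher and 2.42% lower. The alphaIRS2KD arrays correlated with each other at 0.9948 to 0.9963 and with the control arrays at 0.9947 to 0.9955, so counts are also given without each of them in turn, a check added after the data were seen. Of the 68 mitotic genes 43 were higher in alphaIRS1KD than in alphaIRS2KD cells and 0 lower (28, 34 and 37 without alphaIRS2KD replicates 1, 2 and 3). Of the 12 granin and granule genes 9 were lower, also without any 1 of these arrays. Of the vesicle-coat genes 10 of 53 were lower (4, 5 and 11), and of the lysosomal genes 13 of 53 (7, 6 and 13). The mitotic and vesicle-coat lists thus gave fewer calls than against control (55 higher and 25 lower there), and the lysosomal list gave more (11 lower there). Over all genes, too, fewer calls were made than against control (2.98% higher and 3.68% lower there), and other lists went the same way. Among those lists, 3 of 38 translocation and N-glycosylation genes were lower and 1 higher (3, 1 and 7 lower). Of 47 MHC class I and interferon genes 4 were lower (2, 2 and 8), and of 69 replication genes 3 were higher and 1 lower (2, 1 and 3 higher). Of the protein tyrosine phosphatases 6 of 36 were lower, against 3 in the comparison with control. Btg2 had a mean signal of 8.16 in alphaIRS2KD cells and was 0.58 lower in alphaIRS1KD cells (adjusted p = 0.00096). Mapk12 (1.14 higher, adjusted p = 0.00015), Egr1 (adjusted p = 0.00036), Klf15 (adjusted p = 0.00093), Ptprf (adjusted p = 0.00059) and Penk (adjusted p = 0.00048) also differed between the knockdown lines. Plpp3 read 7.42, 7.07 and 6.94 in alphaIRS2KD cells, near its control signals and 1.90 above those of alphaIRS1KD cells on average (adjusted p = 0.00021).

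Other genes were not called between the lines, ran the other way or lay in between. Gab2 (mean 8.52 in alphaIRS2KD cells, adjusted p = 0.06), Inppl1 (7.13, adjusted p = 0.16), Cacna1d (6.74, adjusted p = 0.66) and Fgf1 (7.49, adjusted p = 0.91) were higher than in control cells in alphaIRS1KD cells, and the comparison of the knockdown lines made no call. Ptprk was higher still in alphaIRS2KD cells, with a mean of 7.62 (0.97 above alphaIRS1KD, adjusted p = 0.00027). Man1a read 8.27, 8.20 and 7.99 in alphaIRS2KD cells, between control and alphaIRS1KD arrays, and the step from alphaIRS2KD to alphaIRS1KD was 1.11 (adjusted p = 0.00015). Cped1 read 6.25, 6.24 and 6.14 there, again in between. Of the 25 largest rises against control 23 were also higher and 1 lower than in alphaIRS2KD cells, and all 25 largest falls were lower, counts that share the alphaIRS1KD arrays with the choice of genes.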

How the data were processed

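RNA of control, alphaIRS1KD and alphaIRS2KD cells was measured on 9 arrays, 3 per group, and the authors deposited log2 signals. The submitters' processing notes name RMA (version not given in the sources used here), which corrects background, equalizes arrays and summarizes probes, and can compress large or very bright changes. Arrays have no sequencing depth, and precision is limited by having 3 per group. Of 41345 probe sets, 23521 with 1 gene symbol were used, 1820 with several and 16004 with none were not, and for 1082 genes with more than 1 the one with the highest mean over 9 arrays was kept, which gave 22180 genes. Some genes are not reported here.

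The 3 groups were fitted together with limma 3.58.1 in R 4.3.3, on the values as deposited, with Benjamini-Hochberg adjustment over all genes and a call at an adjusted p under 0.05. Errors are limma's standard errors. The code was tested on simulated data. Gene lists are described by counts and medians, with no test over a list. Promoters are RefSeq sequences of GRCm38.p6, the first listed per gene. The comparison, its members and the lists were chosen with earlier results of these data known.

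Named genes follow a rule. They are Irs1, Irs2, Gcg and genes the study names from or beside these arrays, the 25 genes per direction with the largest change and no overlap between arrays, up to 6 called members per direction of each list, the first 4 members of each list, the neighbors of the 10 largest changes per direction, and called genes that cross the array median. Other names (Abat, Calr, Cdc20, Creld2, Gad1, Gad2, Iapp, Man1a2, Man1c1, Mapk13, Mapk14, Mki67, Pdia6, Ube2c, Ucn3 and most genes beside Mapk11, Peg10 and their neighbors) were picked with their values in view.

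The alternatives were other thresholds, the methods' t-test with and without adjustment, only the compared groups, trend and robust estimation, array weights, median centring, the replicate number as a block, repeated quantile normalization, a filter on the dimmest 30 percent, the mean of a gene's probes, all probes, and each array left out.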

Additional observations from a re-analysis of the deposited data

Results flagged for a closer look

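Probe sets outside the comparisons also changed. Among 16004 probe sets that carry no gene symbol, limma called 90 higher and 183 lower in alphaIRS1KD than in control cells, 1.71% in all, in data that no gene-level result uses. Among 1820 that name several genes, 36 were higher and 55 lower. They are given as counts because no gene can be tied to them here.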

How the results depend on the processing

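Genes higher and lower numbered 347 and 408 at an adjusted p under 0.01, 184 and 215 with a change of at least 1.5-fold as well, 1824 and 1991 by the methods' t-test at an unadjusted p under 0.05, and 421 and 481 by that test after Benjamini-Hochberg adjustment, of which 340 and 406 were among the genes called here. Leaving out 1 array gave 435 to 800 genes higher and 517 to 922 lower. The 435 came without alphaIRS1KD replicate 2, and the fewest lower genes came without that array (517), control replicate 2 (517) or control replicate 3 (519). Under the other settings tried both counts stayed within 1.5 times, though higher genes outnumbered lower ones after median centring (592 and 559) and after a further quantile normalization (873 and 780). Irs1 was called in each of its 22 alternatives, with differences from -0.93 to -0.60. With the replicate number as a block, 525 were higher and 609 lower, and same-numbered arrays did not deviate together (correlations from -0.08 to 0.02), so the numbers do not pair the samples. Among named genes that were called or that the study names, the sign turned for 3. Atp5a1 and Uqcrc2, neither called, were both at -0.01. Atp5a1 gave 0.01 after median centring, 0.02 after quantile normalization and -0.02 to 0.01 without 1 array, Uqcrc2 0.01, 0.00 and -0.04 to 0.02, and Kcnma1, called at -0.25 on the brighter of its 2 probes, gave 0.14 as the mean of both. Over the same genes, Irs1 aside, and all settings, 6933 values kept their side of the threshold, 1170 lost it, 21 gained it and 8 turned. Uncalled genes that the study does not name were left out, so few gains could be counted. Calls of 109 named genes were lost without at least 1 array. The causes were not tested.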

Other observations

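The arrays also carry probe sets for microRNA genes, which were looked at after other values were seen. They target the gene or its hairpin and not a mature arm, and most were dim, with a median control signal of 3.94. Of 483 measured, 8 were lower (1.66%) and 0 were higher in alphaIRS1KD than in control cells, with a median difference of -0.04. Mir344 read 6.15, 6.06 and 6.02 in control and 5.55, 5.35 and 5.48 in alphaIRS1KD cells (-0.61 ± 0.07, adjusted p = 0.0011 from limma), with no overlap. Mir493 (-0.85), Mir344-2 (-0.82), Mir542 (-0.49) and Mir382 (-0.29) were lower as well. Mir493 and Mir382 lie in an imprinted microRNA region of chromosome 12, where the noncoding Rian was lower too (-0.29, adjusted p = 0.021 from limma, lost without 5 of the 9 arrays, at most 0.079 without control replicate 2) and Meg3 was not (-0.01).

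By chromosome, the share of genes called lower was 6.67% on chromosome 19, 5.86% on chromosome 1 and 5.34% on the X, where 1.67% were higher, against 3.68% lower over all genes. Median differences of the autosomes and the X lay between -0.012 and 0.014, and that of 17 genes on the Y was 0.02, with 2 of them called higher (11.8%). The 2 measured genes on each side of the 10 largest changes per direction were looked at. Of these, Apela beside Smim31 (0.62), Adam23 beside Zdbf2 (-0.33), Fam3c beside Cped1 (-0.35), Fndc3b beside Ghsr (0.25) and Prkaa2 beside Plpp3 (-0.53) were called. They are to be read against the 6.66% of all genes that were called in either direction. Fndc3b had the opposite sign to its neighbor, and an effect of position was not tested. The calls of Apela and Fndc3b were lost without 7 and 5 of the 9 arrays (highest limma adjusted p = 0.14 without control replicate 2 and 0.08 without control replicate 1).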
